A study of Caenorhabditis elegans with 8 samples.

Results

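The 10 tubulin genes *mec-7*, *mec-12*, *tba-1*, *tba-2*, *tba-4*, *tba-5*, *tba-9*, *tbb-1*, *tbb-2* and *tbb-4* of *Caenorhabditis elegans* were followed through RNA-seq of 8 strains. They were taken by their WormBase symbols out of the 46778 genes counted, with no measured value in the choice. All 10 matched a gene ID, and all 10 passed the filter on low counts in every comparison. In these data *mec-7* and *mec-12*, the tubulins of the touch receptor neurons (TRNs), were the members that varied most between strains, with 47.7 and 19.1 times as high a level in the highest library as in the lowest, in reads scaled to a common library size (CPM). The 4 broadly expressed tubulins *tba-1*, *tba-2*, *tbb-1* and *tbb-2* stayed within 1.90 to 2.42 times.

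Microtubules are polymers of heterodimers of one α-tubulin and one β-tubulin, and a worm carries several genes for each. TRNs, which sense gentle touch, hold bundles of unusually wide and stable microtubules. These are built from the α-tubulin MEC-12, which is acetylated by MEC-17, and the β-tubulin MEC-7. Both genes are switched on in these cells by the LIM homeodomain factor MEC-3, the terminal selector of TRN fate. The α-tubulins TBA-1 and TBA-2 and the β-tubulins TBB-1 and TBB-2 serve the embryo, the germline and most tissues. TBA-5 and TBA-9 (α) and TBB-4 (β) are known from the cilia of sensory neurons, and *tba-4* is a further α-tubulin gene.

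Tubulin genes are close relatives, and reads or oligos tell them apart only where they differ. The 4 oligos below are shown because the study lists them under qPCR names for the 2 TRN tubulin transcripts. By these names no reverse oligo of *mec-7* is among them, so they are not a full set of pairs. The forward oligos mec-7_qPCR-F2 and mec-12_qPCR-F2 share a run of 9 bases, set in capitals, although one gene encodes a β-tubulin and the other an α-tubulin.
mec-7_qPCR-F2: CAAGCCGGAcaatgcggtaatc
mec-12_qPCR-F2: tcacatcggaCAAGCCGGAg
mec-7_qPCR-F: cggttcgaagttctgggaggt
mec-12_qPCR-R2: gacggctcttggcacatgac

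RNA came from whole synchronised L4 larvae grown on OP50 bacteria, as 2 replicate libraries per strain. Every strain carried a *mec-17p*::*TagRFP* reporter that marks TRNs. The insertion was *uIs115* on chromosome IV in 6 strains and *uIs134* on chromosome V in *mec-3(syb8382)* and *mec-3(u184)*, so for these allele and insertion cannot be told apart. The single mutants were *mec-3(u184)*, *mec-7(u278)*, *mec-3(syb8382)*, *mbl-1(tm1563)* and *mec-3(unk206)*, and they were set beside wild type and the double mutants *mbl-1(tm1563); mec-3(unk206)* and, last, *mec-7(u278); mbl-1(tm1563)*. MBL-1 is the worm Muscleblind, an RNA-binding regulator of splicing, and the *tm1563* allele removes an exon that all its isoforms share and is written *mbl-1(-)* here (and the last strain *mec-7(u278) mbl-1(-)*). The *u278* allele is a neomorphic change of the β-tubulin MEC-7 itself. Among the *mec-3* alleles, *u184* is a null, *syb8382* lacks exon 2 and with it the long isoform *mec-3a*, and *unk206* lacks introns 1 and 2 and makes only *mec-3a*. Each comparison therefore asks how the tubulin transcripts of a whole larva differ when MBL-1, MEC-7 or a form of MEC-3 is altered. In bulk RNA, fewer cells of a type and less RNA per cell cannot be told apart.

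On the WBcel235 assembly *mec-7* (WBGene00003171) spans X:7774856-7776689 on the minus strand in 5 exons. The gene *mec-12* (WBGene00003175) spans III:3131574-3139234 on the minus strand, also in 5 exons, and shares 76 bases with *Y53G8B.1* on the other strand. The broad members lie at I:9785781-9787624 (*tba-1*), I:12964674-12966795 (*tba-2*), III:10740868-10742432 (*tbb-1*) and III:4015910-4017627 (*tbb-2*), all on the minus strand. The gene *tba-4* lies at II:10918706-10920211 on the plus strand. Of the ciliary members, *tba-5* lies at I:8353382-8358273 and *tba-9* at X:3252800-3256269 on the plus strand, and *tbb-4* at X:9434452-9436893 on the minus strand. Besides *mec-12*, only *tba-5* shares bases with a gene on the other strand (26 with *rsd-6*).

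Each library held between 22296336 and 23180583 reads on genes. Between 2.47% and 4.24% of all reads mapped to several places and were not counted. How many of these belong to tubulin genes was not measured. In the 8 libraries of the strains with a *mec-3* allele, 97.7% to 98.4% of the stranded counts were on the second strand, against 50.8% to 51.3% in the other 8, so a comparison between these 2 sets is confounded with the kind of library. Levels below are unstranded counts in CPM over all 16 libraries, scaled by TMM, which sets library sizes so that most genes do not differ. Fold changes come from pairwise fits, which use second-strand counts within the strand-specific set. The markers of TRNs (10 genes), neurons (16), ciliated neurons (22), body wall muscle (6), intestine (5) and hypodermis (5) were all above 0 in every library. Markers of the germline (20 genes) summed to 692 and 1455 CPM in wild type, 2801 and 1312 in *mec-7(u278)*, 2014 and 279 in *mbl-1(-)* and 3961 to 8143 in the other strains. Sperm genes (36, of which 0 to 7 were at 0 in a library) ran from 14.5 CPM in *mbl-1(-)* replicate 2 to 6421 in *mec-3(syb8382)* replicate 1. Replicates of wild type, *mec-7(u278)* and *mbl-1(-)* thus differed from each other in germline content, and its part in any tubulin result was not tested.

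Per kilobase of exon, *tbb-2* was the most abundant member in wild type, at 1375 and 1111 CPM per kb in the 2 libraries. It was followed by *tba-2* (961 and 835) and *tbb-1* (745 and 672). The α-tubulins *tba-4* (373 and 315) and *tba-1* (382 and 277) overlapped each other. Below them *mec-12* gave 210 and 157 CPM per kb and *mec-7* gave 136 and 95.1, so both TRN tubulins stood above all 3 ciliary members in whole larvae. The β-tubulin *tbb-4* gave 4.13 and 2.83 CPM per kb, and *tba-9* (1.49 and 1.84) and *tba-5* (1.48 and 1.70) overlapped. The gene *mec-12* ranked 6 and *mec-7* ranked 7 among the 10 in all 8 strains, but the distance to their neighbours changed. In *mec-3(u184)*, *mec-12* gave 26.0 and 27.4 CPM per kb, and *mec-7* gave 4.40 and 4.90, next to *tba-9* with 3.81 and 3.44. In *mec-7(u278) mbl-1(-)*, where *mec-7* gave 2.84 and 7.83 CPM per kb and *tba-9* 4.48 and 2.27, these 2 members overlapped. They overlapped in *mbl-1(-); mec-3(unk206)* too.

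The level of *mec-7* in CPM was 212 and 149 in wild type, 47.2 and 97.6 in *mec-7(u278)*, 32.1 and 59.1 in *mbl-1(-)*, 35.4 and 31.6 in *mec-3(unk206)*, 10.1 and 9.01 in *mec-3(syb8382)*, 4.44 and 12.2 in *mec-7(u278) mbl-1(-)*, 8.05 and 7.40 in *mbl-1(-); mec-3(unk206)* and 6.88 and 7.66 in *mec-3(u184)*. Wild type stood alone at the top, *mbl-1(-)* overlapped both *mec-7(u278)* above it and *mec-3(unk206)* below it, which did not overlap each other, and the last 4 formed a lower set in which neighbours overlapped. The mean of wild type was 24.8 times that of *mec-3(u184)*, a strain that also differs from it in the kind of library and the reporter insertion. The lowest library still held 117 reads on the gene.

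For *mec-12* the level in CPM was 339 and 253 in wild type, 83.1 and 178 in *mec-7(u278)*, 89.7 and 160 in *mbl-1(-)*, 52.1 and 49.2 in *mec-3(unk206)*, 41.9 and 44.2 in *mec-3(u184)*, 35 and 29.5 in *mec-3(syb8382)*, 23.5 and 23.1 in *mbl-1(-); mec-3(unk206)* and 17.7 and 34 in *mec-7(u278) mbl-1(-)*. Wild type was again the highest, and *mec-7(u278)* and *mbl-1(-)* overlapped below it. In contrast to *mec-7*, the lowest strain mean was that of *mbl-1(-); mec-3(unk206)* and not that of the *mec-3* null, in which *mec-12* stayed above the last 3 strains.

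**Figure D1:**
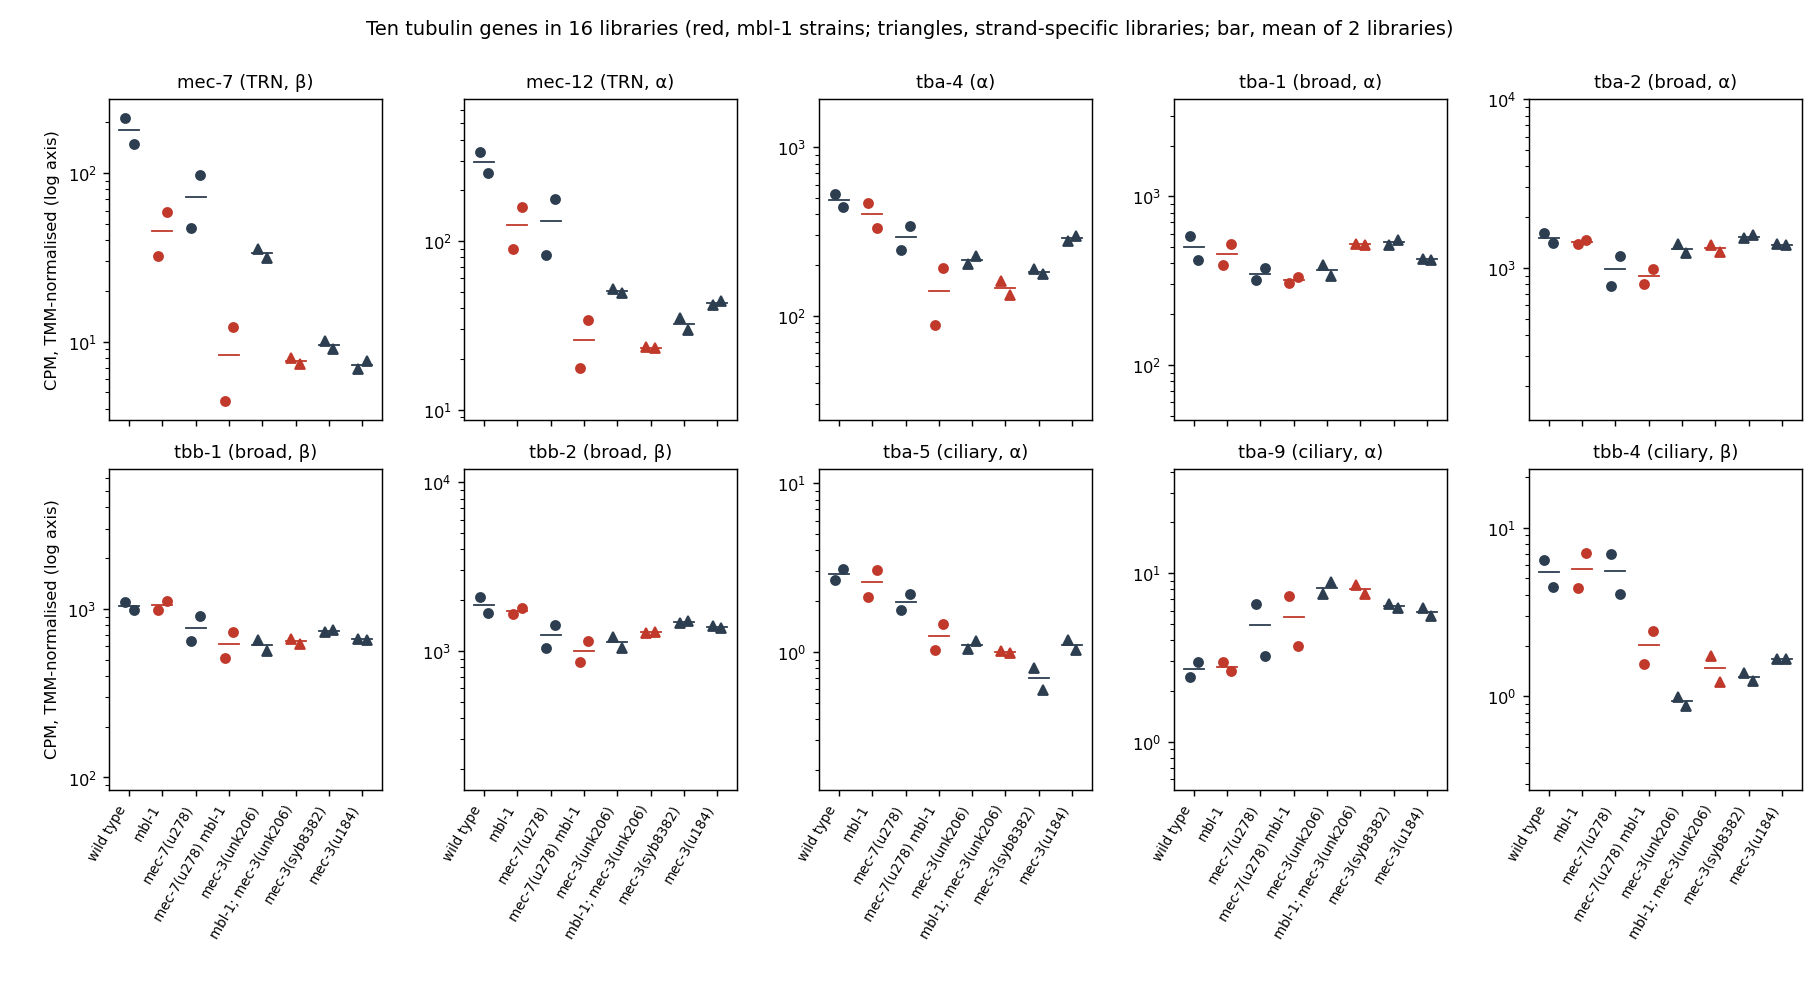
Level of each of the 10 tubulin genes in CPM (log axis) in the 2 libraries of each of 8 strains, with a bar at their mean, strains without *mbl-1* in red and strand-specific libraries as triangles. The 4 broad tubulins each span 1.90 to 2.42 times from lowest to highest library, while *mec-7* spans 4.44 to 212 CPM and *mec-12* 17.7 to 339 CPM, each highest in wild type.

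The α-tubulin *tba-4* was intermediate, with 526 and 444 CPM in wild type, 467 and 332 in *mbl-1(-)*, 279 and 296 in *mec-3(u184)*, 245 and 341 in *mec-7(u278)*, 203 and 226 in *mec-3(unk206)*, 188 and 176 in *mec-3(syb8382)*, 161 and 133 in *mbl-1(-); mec-3(unk206)* and 88.2 and 191 in *mec-7(u278) mbl-1(-)*. Its highest library held 5.96 times the CPM of the lowest, more than any of the 4 broad members and less than the TRN tubulins. Both strains that combine *mbl-1(-)* with a second allele had the lowest means.

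Among the broad members, *tbb-2* ran from 860 CPM in *mec-7(u278) mbl-1(-)* replicate 1 to 2082 in wild type replicate 1. The other broad β-tubulin, *tbb-1*, ran from 510 to 1116 CPM. The α-tubulins *tba-2* and *tba-1* ran from 778 to 1611 and from 305 to 580 CPM. Replicates of one strain could differ by nearly as much as strains did: *tba-2* gave 778 and 1185 CPM in the 2 *mec-7(u278)* libraries. The ratio of the summed CPM of the 2 broad α-tubulins to that of the 2 broad β-tubulins lay between 0.651 and 0.973 in all 16 libraries.

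The ciliary members were rare. The α-tubulin *tba-5*, with 13 to 62 reads per library, gave 2.68 and 3.09 CPM in wild type and 0.801 and 0.595 in *mec-3(syb8382)*, its lowest strain. The β-tubulin *tbb-4*, with 22 to 172 reads, gave 6.45 and 4.43 CPM in wild type, 6.97 and 4.04 in *mec-7(u278)*, 4.36 and 7.08 in *mbl-1(-)*, and 0.874 to 2.45 in the other 5 strains. The α-tubulin *tba-9*, with 47 to 222 reads, went the other way, with 2.43 and 2.99 CPM in wild type, 6.60 and 3.22 in *mec-7(u278)*, 2.96 and 2.62 in *mbl-1(-)*, 7.29 and 3.69 in the double mutant of these and 5.60 to 8.82 in the 4 *mec-3* strains. So the ciliary members did not share one pattern over strains. The 22 markers of ciliated neurons summed to 49.4 and 51.1 CPM in wild type, 56.1 and 57.0 in *mbl-1(-)* and 20.6 to 30.6 in the *mec-3* strains. These markers were thus lower in the *mec-3* strains than in wild type, as *tba-5* and *tbb-4* were, while *tba-9* was higher, and the part of such cells in these levels was not tested.

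Loss of *mbl-1* was compared with its control in 3 backgrounds. Against wild type, *mec-7* was lower in *mbl-1(-)*, with a log2 fold change of −1.94 ± 0.46 (SE; 2 libraries against 2), and *mec-12* with −1.2 ± 0.43. In both genes the 2 mutant libraries lay below the 2 wild-type libraries, as they did for 12% of all genes tested, and for the other 8 tubulins the groups overlapped (19.9% of all genes did not overlap in either direction). Neither gene passed edgeR's quasi-likelihood test, which weighs the difference against the spread between replicates, after Benjamini-Hochberg adjustment over all genes at a threshold of 0.05 (adjusted p = 1 for each, unadjusted p = 0.0127 and 0.0479). That test called 0 of the 14493 genes (0%), with 161 (1.11%) at an unadjusted p under 0.05, among them these 2 tubulins and no other member. DESeq2 called 23 genes (0.108%), one of them *mec-7* (−1.90, adjusted p = 0.0339 by its Wald test). With each library left out in turn *mec-7* ran from −2.58 to −1.43 and *mec-12* from −1.81 to −0.71, both ends being the fits without one *mbl-1(-)* library. The remaining members had log2 fold changes between −0.27 (*tba-4*) and 0.11 (*tbb-4*). The summed level of the 10 TRN markers, 186 and 154 CPM in wild type and 108 and 173 in *mbl-1(-)*, overlapped, with a median log2 fold change of 0.08 against one near 0 over all genes. Of these 10 markers 5 had a negative log2 fold change and the rest did not. Among the negative ones was *mec-17*, with −1.04 ± 0.40 (SE; unadjusted p = 0.057 by edgeR's quasi-likelihood test). So in this background both TRN tubulins were lower in both libraries while the TRN marker list as a whole was not.

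With *u278* in both strains, *mec-7* differed between the double mutant *mec-7(u278) mbl-1(-)* and its *mec-7(u278)* control by −3.16 ± 0.66 (log2, SE) and *mec-12* by −2.37 ± 0.55. The other members whose libraries did not overlap were also lower in the double mutant: *tbb-4* (−1.49 ± 0.60), *tba-4* (−1.1 ± 0.48) and *tba-5* (−0.71 ± 0.57). Lower in both libraries, with 5 of the 10 members, were 23.2% of all genes tested (46.2% in either direction). By edgeR's quasi-likelihood test none of the 10 was called (adjusted p = 0.66 for *mec-7* and *mec-12*), nor any of the 15221 genes (0%), 560 of which (3.68%) had an unadjusted p under 0.05. DESeq2 called 19 genes (0.0853%), among them *mec-7* (adjusted p = 0.00377). Without *mec-7(u278) mbl-1(-)* replicate 2, edgeR called *mec-7* (−4.07, adjusted p = 0.0124) and *mec-12* (−2.92, adjusted p = 0.0448), beside 2.18% of all genes. The other 3 fits without one library called 0 genes, with *mec-7* between −3.56 and −2.51. TRN markers summed to 21.8 and 42.3 CPM in the double mutant, below the 60.7 and 100 of *mec-7(u278)*, and germline markers to 5695 and 4470, above 2801 and 1312. Neuronal markers were at 583 and 843 against 854 and 1166 CPM, with 15 of 16 lower (median −0.78, none called), and those of ciliated neurons at 26.9 and 35.1 against 36.5 and 45.6. The 2 double mutant libraries stood far apart in 5 hypodermal markers (173 and 1927 CPM). The part of these in the differences was not tested.

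In the *mec-3(unk206)* background, where only the long isoform *mec-3a* is made, edgeR's quasi-likelihood test called 4 of the 10 members at an adjusted p under 0.05, beside 36% of the 15097 genes tested. Here *mec-7* fell in the strain without *mbl-1* (log2 fold change −2.14 ± 0.17, SE; adjusted p = 7.1e-07), and so did *mec-12* (−1.13 ± 0.15, adjusted p = 3.9e-05). The α-tubulin *tba-4* fell too (−0.55 ± 0.15, adjusted p = 0.0096), and the broad *tba-1* rose (0.51 ± 0.14, adjusted p = 0.011). Of all genes, 21.9% were lower and 14.2% higher by the same test, so 3 falls and 1 rise among 10 are close to the background. Among the members *mec-7* changed most, from 35.4 and 31.6 CPM to 8.05 and 7.40. Of the other members, *tbb-4* was higher in both libraries without passing the test (0.65 ± 0.32, adjusted p = 0.13). The libraries of 6 members did not overlap, against 69.9% of all genes. All 4 calls were lost in one fit of all 16 libraries, which shares their spread (*mec-7* −1.97, adjusted p = 0.097), a fit that called 0.18% of all genes. Without *mec-3(unk206)* replicate 2, 2 members were called, *mec-7* and *mec-12* (27.3% of all genes), and without *mbl-1(-); mec-3(unk206)* replicate 2, 3 were (not *tba-4*; 27.5%). TRN markers summed to 41.0 and 44.7 CPM in the control and 29.6 and 30.7 without *mbl-1*, and 3 of 10 fell, among them *mec-17* (−1.21 ± 0.19, adjusted p = 0.00021), the gene of the α-tubulin acetyltransferase. Germline markers summed to 5426 and 4463 against 7443 and 8143 CPM, with 13 of 20 higher, and their part was not tested.

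**Figure D2:**
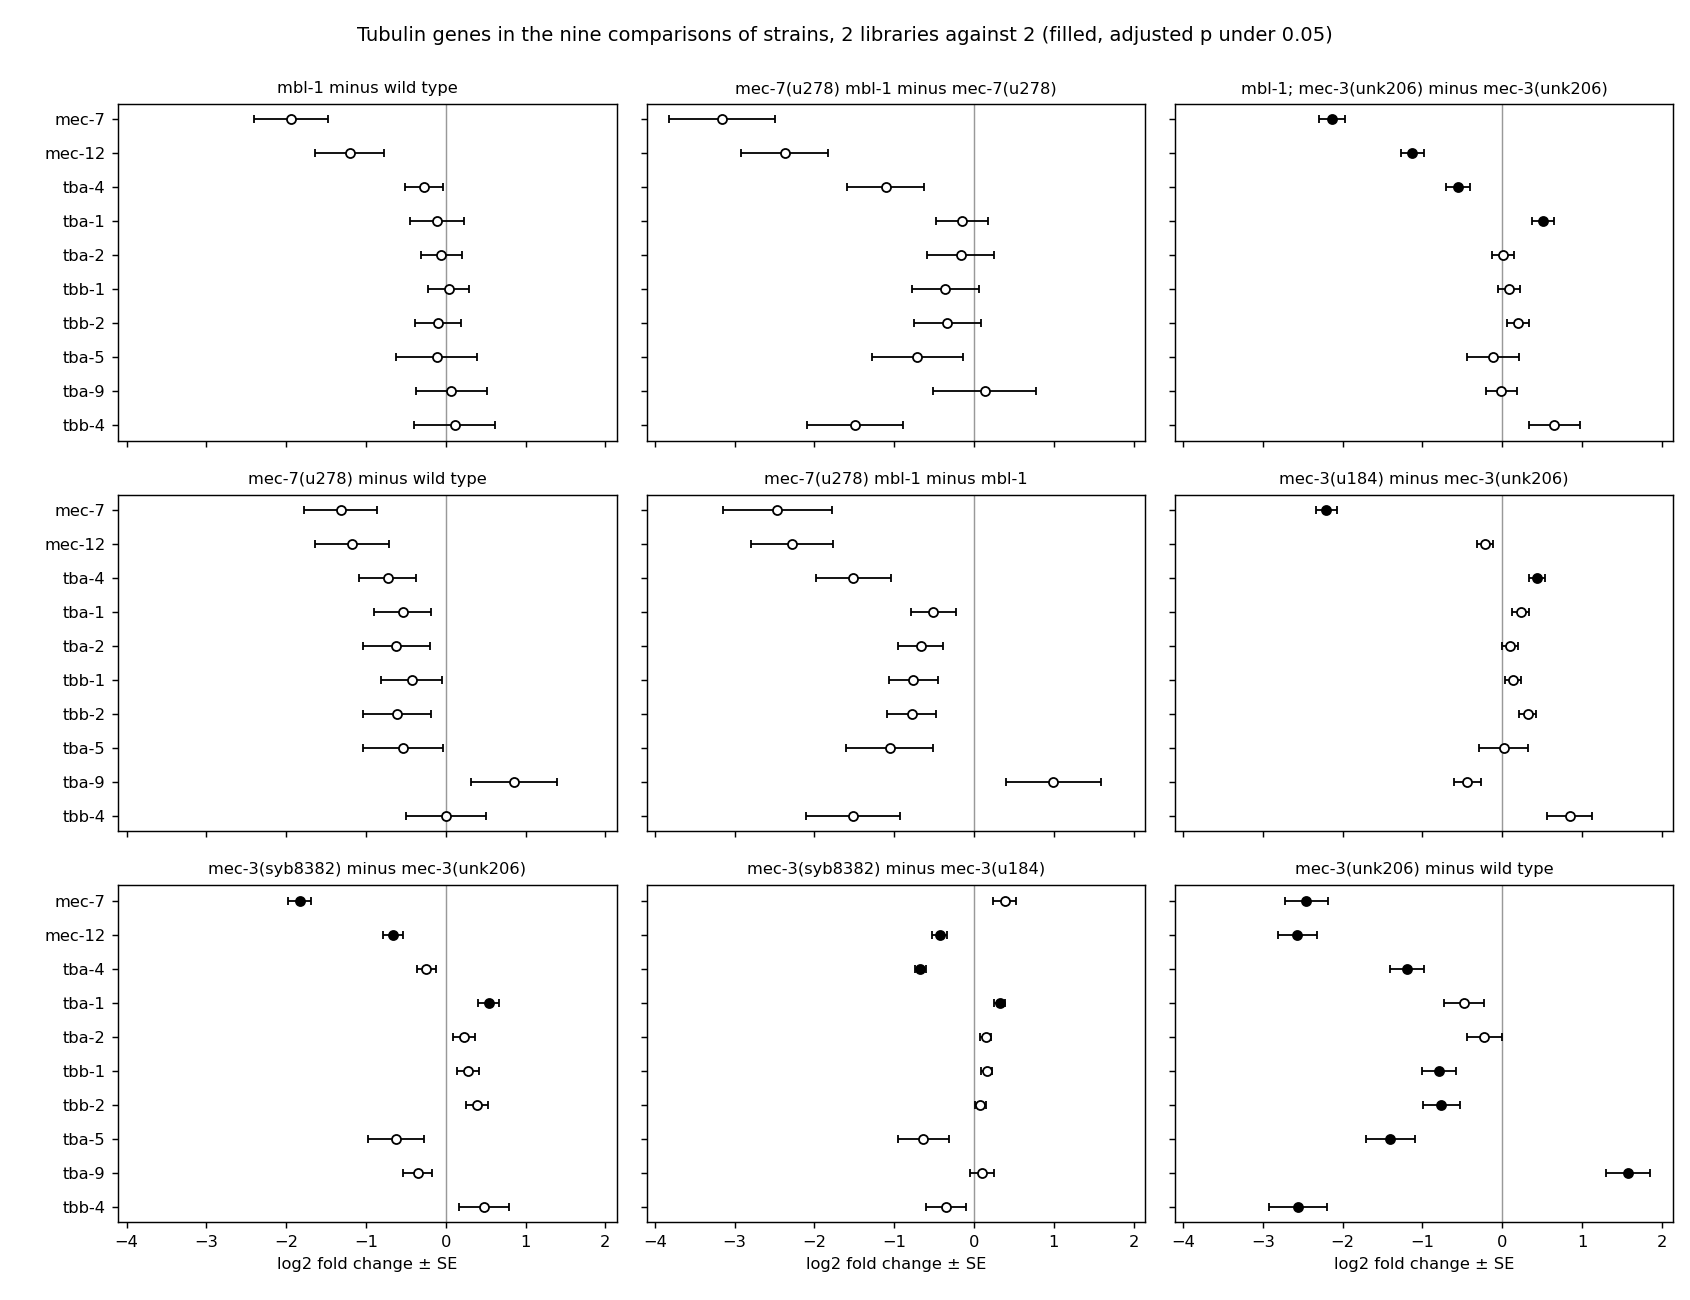
Log2 fold change with its SE for each tubulin gene in 9 comparisons of 2 strains, filled where edgeR's adjusted p was under 0.05. Values for *mec-7* lie left of 0 in all panels but *mec-3(syb8382)* against *mec-3(u184)*, where it is 0.38, and the broad tubulins lie between −0.36 (*tbb-1*) and 0.51 (*tba-1*) in the 3 comparisons of *mbl-1*.

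The difference of the *mbl-1* effect between backgrounds was tested as an interaction over 8 libraries. For *mec-7* the effect in *mec-7(u278)* minus that in wild type was −1.21 ± 0.88 (log2, SE), and for *mec-12* −1.16 ± 0.76 (adjusted p = 0.91 for each by edgeR's quasi-likelihood test, which called 0 of 15602 genes, or 0%). Of these genes 260 (1.67%) had an unadjusted p under 0.05, and DESeq2 called 3. The same contrast for *mec-3(unk206)* was −0.14 ± 0.45 for *mec-7* (adjusted p = 0.92) and 0.12 ± 0.42 for *mec-12* (adjusted p = 0.93), with 3 of 15661 genes called (0.0192%) and no tubulin among them. In this last contrast the background and the kind of library cannot be told apart. A difference of the *mbl-1* effect between backgrounds was thus not detectable with these libraries, which does not show that the effects were alike.

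The *u278* allele itself was compared with the same strain without it. Against wild type, all members but *tba-9* and *tbb-4* were lower in both *mec-7(u278)* libraries, 8 of 10, against 23.6% of all genes (46.7% in either direction). On the log2 scale *mec-7* differed by −1.32 ± 0.45 (SE), and the fold change of *mec-12* was −1.18 ± 0.46 and of *tba-4* −0.73 ± 0.35, with the other 5 between −0.62 (*tba-2*) and −0.43 (*tbb-1*). The ciliary *tba-9* was higher, at 0.85 ± 0.54. None of the 10 passed edgeR's quasi-likelihood test (adjusted p = 0.56 for *mec-7* and *mec-12*), which called 3 of 14710 genes (0.0204%). Hence transcript of the altered gene was present at 47.2 and 97.6 CPM, below wild type in both libraries but not by the test. TRN markers summed to 60.7 and 100 CPM against 186 and 154 in wild type. Sperm genes were at 3455 and 997 CPM against 235.2 and 984, and the part of either was not tested.

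Without *mbl-1*, the same allele went with lower levels of 9 members in both libraries and a higher level of *tba-9*, so that all 10 were free of overlap, as were 76.2% of all genes. Here *mec-7* differed by −2.47 ± 0.68 (log2, SE), *mec-12* by −2.28 ± 0.52, *tbb-4* by −1.52 ± 0.59 and *tba-4* by −1.51 ± 0.47, and the 4 broad members by −0.78 to −0.51. By edgeR's quasi-likelihood test 0 of the 10 and 0 of 15086 genes (0%) were called, with 2293 genes (15.2%) at an unadjusted p under 0.05 and 195 (0.888%) called by DESeq2, no tubulin among the latter. In one fit of all 16 libraries 9 members were called, all but *tba-9*, beside 37% of all genes. Without *mbl-1(-)* replicate 1, *mec-7* and *mec-12* were called beside 13.3% of all genes, and the other 3 fits without one library called 0 genes. TRN markers summed to 21.8 and 42.3 CPM in the double mutant, below the 108 and 173 of *mbl-1(-)*. All 10 of them had a negative log2 fold change, with a median of −1.93, and none was called. Neuronal markers were at 583 and 843 against 1193 and 1656 CPM, with 15 of 16 lower and none called. The 2 *mbl-1(-)* libraries differed in germline markers (2014 and 279 CPM), and the double mutant held 5695 and 4470. The part of these lists in the tubulin differences was not tested. Wild type, *mbl-1(-)*, *mec-7(u278)* and the double mutant each enter 2 of these 4 comparisons, which are therefore not independent.

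Within the *mec-3* alleles, the null *u184* was compared with *unk206*. Of the 10 tubulins, 2 were called by edgeR's quasi-likelihood test, beside 26.6% of 15040 genes. The TRN β-tubulin *mec-7* fell (log2 fold change −2.21 ± 0.13, SE; adjusted p = 5.0e-05), from 35.4 and 31.6 CPM to 6.88 and 7.66. Its partner *mec-12* did not pass (−0.22 ± 0.10, adjusted p = 0.13), with 52.1 and 49.2 CPM against 41.9 and 44.2, although the libraries did not overlap. So the TRN tubulins, both targets of MEC-3, gave estimates −2.21 and −0.22 in the same 4 libraries, and the difference between the genes was not tested. The α-tubulin *tba-4* rose (0.44 ± 0.11, adjusted p = 0.017). Next to the threshold were *tbb-2* (0.32 ± 0.10) and *tbb-4* (0.84 ± 0.28), which passed in a fit with the replicate number as a block, making 4 calls beside 30.8% of all genes. The libraries of 8 members did not overlap, against 67.3% of all genes. Without *mec-3(unk206)* replicate 1, 5 members were called, with *tba-1*, *tba-9* and *tbb-2* added, beside 37.4% of all genes. Without either *mec-3(u184)* library, 1 was (*mec-7*), beside 14.5% and 13.6%. The fit of all 16 libraries called none and 0.106% of genes. Of the TRN markers 8 of 10 fell, where 12% of all genes fell, with a median of −2.66. They were led by *mec-10* (−3.79), a subunit of the touch channel, and *mec-3* (−3.46), which is itself the mutated gene. Germline markers summed to 4012 and 3961 CPM in *mec-3(u184)*, below the 5426 and 4463 of *mec-3(unk206)*, and their part was not tested.

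The allele without the long isoform, *mec-3(syb8382)*, was also set against *mec-3(unk206)*, which makes only that isoform and carries the other reporter insertion. This gave 3 calls among the 10 (13.5% of 14848 genes) by edgeR's quasi-likelihood test. There *mec-7* fell (log2 fold change −1.83 ± 0.14, SE; adjusted p = 0.00015), *mec-12* fell (−0.66 ± 0.12, adjusted p = 0.0087) and *tba-1* rose (0.54 ± 0.13, adjusted p = 0.025). The libraries of all 10 members did not overlap, against 60.5% of all genes. TRN markers fell in 9 of 10 cases, with a median of −1.75. Without *mec-3(syb8382)* replicate 2 only *mec-7* was called (7.17% of all genes), without *mec-3(unk206)* replicate 2 *mec-7* and *mec-12* (6.65%), and without *mec-3(unk206)* replicate 1 *tbb-2* was called as well (15.2%). Of all genes, 5.33% were higher and 8.17% lower by the main test. The fit of all 16 libraries called none (0.0311% of genes).

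The 2 alleles that make no *mec-3a* were then set against each other. In *mec-3(syb8382)* against *mec-3(u184)*, *mec-7* was slightly higher (0.38 ± 0.14, adjusted p = 0.065, edgeR's quasi-likelihood test) with 10.1 and 9.01 against 6.88 and 7.66 CPM, and did not pass the test. Meanwhile *mec-12* fell (−0.43 ± 0.10, adjusted p = 0.012), *tba-4* fell (−0.67 ± 0.07, adjusted p = 0.0012) and *tba-1* rose (0.32 ± 0.07, adjusted p = 0.010). That makes 3 calls of 10 where 46% of 14897 genes were called, and the libraries of 9 members did not overlap, against 75.6%. Of all genes, 23.3% were higher and 22.7% lower. Without *mec-3(syb8382)* replicate 2, *mec-7* was called as well (42.1% of all genes). Without *mec-3(u184)* replicate 1, 2 were called (not *tba-1*; 29.4%) and without its replicate 2, 1 was (*tba-4*; 25.6%), and the fit of all 16 libraries called none (0.0498% of genes). Germline markers were higher in *mec-3(syb8382)* in 20 of 20 cases, with sums of 6984 and 7366 against 4012 and 3961 CPM, and their part was not tested.

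Against wild type, *mec-3(unk206)* differed in 8 members by edgeR's quasi-likelihood test, beside 62.2% of 15124 genes, in a comparison that is confounded with the kind of library. The falls were *mec-12* (−2.57 ± 0.25, adjusted p = 0.0015), *tbb-4* (−2.56 ± 0.36, adjusted p = 0.0025), *mec-7* (−2.45 ± 0.26, adjusted p = 0.0015), *tba-5* (−1.40 ± 0.31, adjusted p = 0.0094), *tba-4* (−1.19 ± 0.22, adjusted p = 0.0051), *tbb-1* (−0.79 ± 0.21, adjusted p = 0.019) and *tbb-2* (−0.76 ± 0.24, adjusted p = 0.032). The only rise was that of *tba-9* (1.58 ± 0.28, adjusted p = 0.0045), and *tba-1* (−0.48) and *tba-2* (−0.23) did not pass. Falls made up 30.3% and rises 31.9% of all genes. The libraries of 9 members did not overlap, against 84%. Without *mec-3(unk206)* replicate 1, 4 members were called (25% of all genes), without its replicate 2, 2 were (*mec-7* and *mec-12*; 19.5%), and without wild-type replicate 2, 9, *tba-1* among them (70.3%). All 34 sperm genes tested and all 20 germline markers were higher in *mec-3(unk206)*, 12 of 16 neuronal markers were lower (median −1.29), and 8 of 10 TRN markers were lower (median −1.84). The part of these and of the library kind was not tested. This comparison shares wild type with those of *mbl-1(-)* and *mec-7(u278)*, and *mec-3(unk206)* with 3 of those above.

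Ratios taken inside one library do not depend on the scaling between libraries, and are given here as a description with no test, since with 2 libraries against 2 an exact permutation test cannot go below 0.33. The CPM of *mec-7* over the summed CPM of the 10 TRN markers was 1.14 and 0.965 in wild type, 0.864 and 0.706 in *mec-3(unk206)* and 0.778 and 0.974 in *mec-7(u278)*. In the strains without *mbl-1* it was 0.298 and 0.341 in the single mutant, 0.204 and 0.289 with *mec-7(u278)* and 0.272 and 0.241 with *mec-3(unk206)*. All 6 libraries without *mbl-1* (0.204 to 0.341) thus lay below all 6 of their controls (0.706 to 1.14). The share of all genes that would separate in such a ratio was not counted, here or for the ratios below. In level, 19.9%, 46.2% and 69.9% of all genes did not overlap in the comparisons of *mbl-1* in wild type, *mec-7(u278)* and *mec-3(unk206)*. In *mec-3(syb8382)* and *mec-3(u184)* the ratio of *mec-7* to the markers was 0.497 to 0.740, above the libraries without *mbl-1*, and the highest of these overlapped the controls.

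The same ratio for *mec-12* was 0.751 to 0.923 in the 6 libraries without *mbl-1* and 1.1 to 1.82 in their 6 controls, again without overlap. In *mec-3(syb8382)* and *mec-3(u184)* it was 2.23 to 3.15, above every other library, unlike that of *mec-7*. The marker list holds *mec-3* itself. Its sum, the denominator of both ratios, was 13.2 to 15.4 CPM in these 2 strains against 41.0 and 44.7 in *mec-3(unk206)*. The level of *mec-12* was not higher there, at 29.5 to 44.2 CPM against 52.1 and 49.2, so its high ratio goes with a low denominator. The genes have exons of nearly equal length in sum (1612 bases in *mec-12*, 1564 in *mec-7*), and the ratio of their CPM, *mec-12* to *mec-7*, was 1.60 and 1.70 in wild type, 1.76 and 1.83 in *mec-7(u278)*, 1.47 and 1.56 in *mec-3(unk206)*, 3.99 and 2.78 in *mec-7(u278) mbl-1(-)*, 2.91 and 3.12 in *mbl-1(-); mec-3(unk206)*, 2.79 and 2.71 in *mbl-1(-)*, 3.45 and 3.27 in *mec-3(syb8382)* and 6.09 and 5.77 in *mec-3(u184)*. In which cells either transcript lay was not measured, and in whole larvae *mec-12* gave more CPM than *mec-7* in every library. Their ratio was smallest in the 3 strains that hold both *mbl-1* and a source of *mec-3a*. The 6 libraries without *mbl-1* (2.71 to 3.99) did not overlap their 6 controls (1.47 to 1.83).

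**Figure D3:**
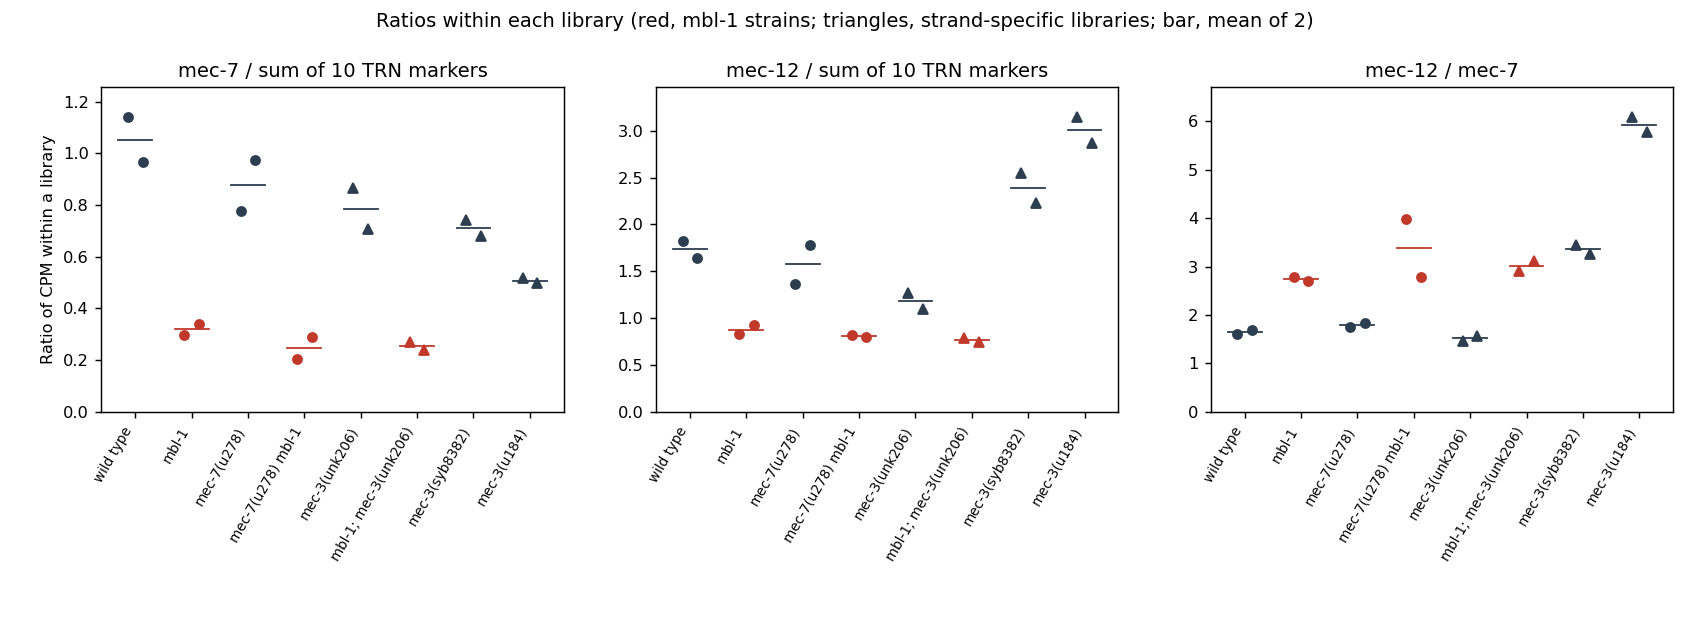
Ratios within single libraries for the 8 strains (linear axes from 0): *mec-7* and *mec-12* over the sum of 10 TRN markers, and *mec-12* over *mec-7*, with points for libraries and bars for means. Strains without *mbl-1*, in red, lie at 0.204 to 0.341 for *mec-7* over TRN markers, below the 0.706 to 1.14 of their controls.

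Reads on the 10 tubulins made up 0.302% to 0.539% of all reads on genes. Of these tubulin reads, *mec-7* and *mec-12* together took 8.53% and 7.51% in wild type, 4.11% and 6.10% in *mec-7(u278)*, 2.43% and 4.01% in *mbl-1(-)*, 2.22% and 2.32% in *mec-3(unk206)*, 1.16% and 1.25% in *mec-3(u184)*, 1.01% and 0.841% in *mec-3(syb8382)*, 0.779% and 0.795% in *mbl-1(-); mec-3(unk206)* and 0.853% and 1.35% in *mec-7(u278) mbl-1(-)*. Wild type was highest and the 4 strains at the end lay close together. The 4 broad members took 83.1% to 95.5% in all libraries, *tba-4* took 3.39% to 9.33%, and the 3 ciliary members 0.175% to 0.484%. Within the β-tubulins alone *mec-7* took 6.24% and 5.27% in wild type and 0.331% and 0.378% in *mec-3(u184)*.

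**Figure D4:**
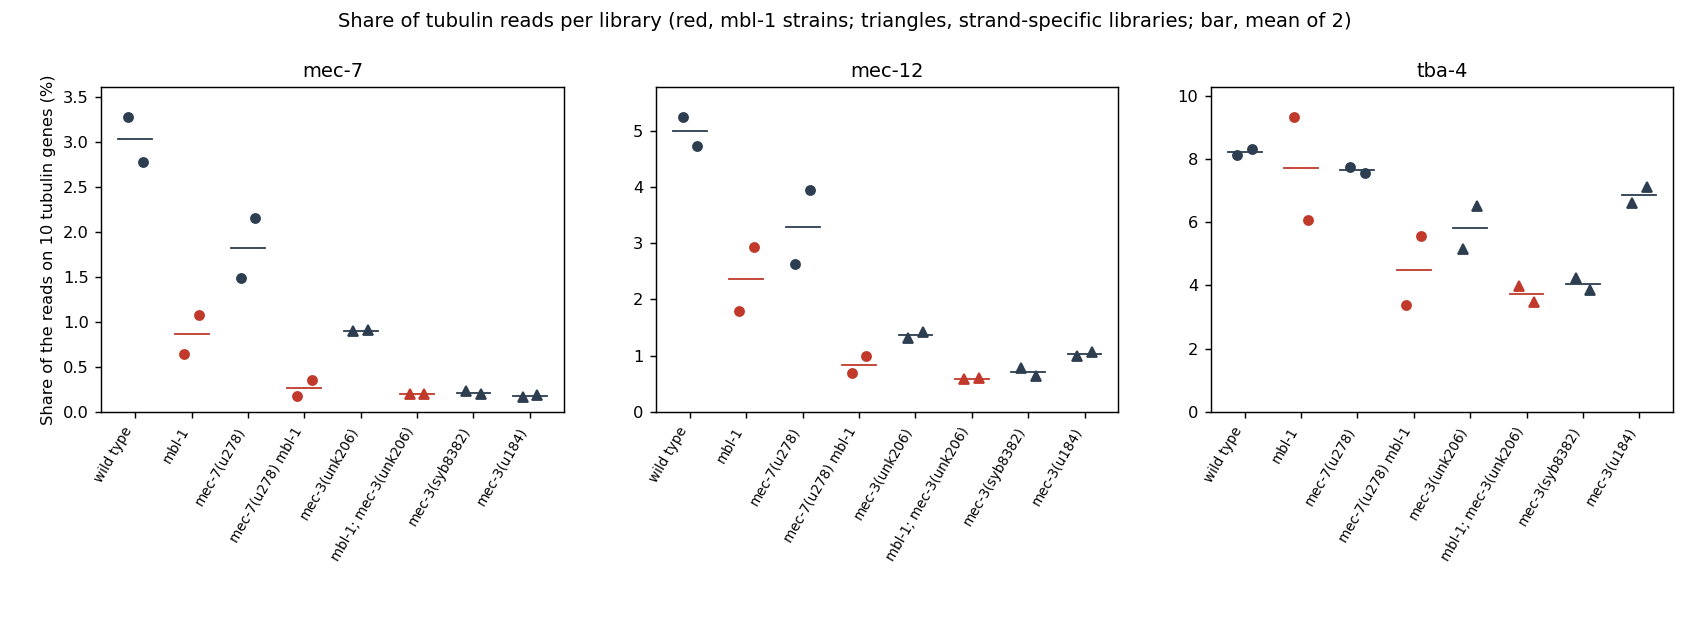
Share of the reads on the 10 tubulin genes (percent) that lay on *mec-7*, on *mec-12* and on *tba-4*, one panel each, in each of 16 libraries, with bars for the means of 2 libraries and red for strains without *mbl-1*. The 2 TRN tubulins are highest in wild type, where they sum to 8.53% and 7.51%, and *tba-4* spans 3.39% to 9.33%.

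The tubulins outside the 10 members behaved differently again. The β-tubulin *tbb-6*, which is known to be induced by stress through the p38 kinase PMK-3, gave 6.61 and 6.95 CPM in wild type and 15.4 and 13.7 in *mbl-1(-)* (1.12 ± 0.26 log2, SE; adjusted p = 1 and unadjusted p = 0.011 by edgeR's quasi-likelihood test). From 1.86 and 2.74 CPM in *mec-3(unk206)* it rose to 4.72 and 4.19 without *mbl-1* (0.94, adjusted p = 0.0083 by the same test). It was thus higher without *mbl-1* in these 2 backgrounds, where *mec-7* was lower, and in the *mec-7(u278)* background it overlapped (4.78 and 4.82 against 3.15 and 6.70). It was also called where *mbl-1* was not varied, higher in *mec-3(u184)* than in *mec-3(unk206)* (1.19, adjusted p = 0.0087) and lower in *mec-3(syb8382)* against *mec-3(u184)* (−0.85, adjusted p = 0.017) by edgeR. The β-tubulin *ben-1*, the target of benzimidazole drugs, was lower in *mec-7(u278) mbl-1(-)* (60.5 and 52.7 CPM) than in its *mec-7(u278)* control (85.4 and 101 CPM), without overlap and without passing the test (−0.75). The γ-tubulin *tbg-1*, which nucleates microtubules, ran from 19.1 CPM in *mbl-1(-)* replicate 2 to 77.7 in *mbl-1(-); mec-3(unk206)* replicate 1. The α-tubulin *tba-7* fell on loss of *mbl-1* in *mec-3(unk206)* (−0.89, adjusted p = 0.00051 by edgeR's quasi-likelihood test). Its highest strain mean was that of *mbl-1(-)*, at 50.5 CPM, so its mean was not lower there than in wild type. The *mbl-1* effect in *mec-3(unk206)* minus that in wild type was −1.07 ± 0.35 for *tba-7* (log2, SE; adjusted p = 0.50 by edgeR's quasi-likelihood test). By the same test it also fell in *mec-3(syb8382)*, against *mec-3(unk206)* (−0.71, adjusted p = 0.014) and against *mec-3(u184)* (−0.77, adjusted p = 0.0099). The α-tubulin *tba-8* was rare (1 to 123 reads), and was called lower in *mec-3(unk206)* (3 and 1 reads) than in wild type (16 and 22 reads; adjusted p = 0.0039 by edgeR), a comparison confounded with the kind of library. The gene *tba-6* (2 to 29 reads) passed the filter in no comparison.

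Genes that act on tubulin were taken as lists. Of 19 genes for tubulin folding (chaperonin subunits, prefoldins and cofactors), 10 rose and none fell on loss of *mbl-1* in *mec-3(unk206)*, where 14.2% of all genes rose, with a median log2 fold change of 0.42, among them *tbca-1* (0.86) and *tbce-1* (0.65), which encode folding cofactors. In the same comparison 8 of 28 microtubule regulators rose and 3 fell, with *mei-1*, a subunit of the severing enzyme katanin, at 0.79. The folding list rose in 15 of 19 cases in *mec-3(syb8382)* against *mec-3(u184)*, where 23.3% of all genes rose, and in 9 of 19 in *mec-3(syb8382)* against *mec-3(unk206)*, where 5.33% did, with no fall. The germline list was higher in these 3 comparisons too (13, 20 and 12 of its 20 genes). In *mec-3(u184)* against *mec-3(unk206)*, 3 of 19 folding genes rose and 1 fell, where 14.6% and 12% of all genes did. There 11 of the 20 germline genes fell and none rose. In *mec-3(unk206)* against wild type 5 folding genes rose and 8 fell, near the 31.9% and 30.3% of all genes, with all 20 germline genes higher. In *mec-3(unk206)* against wild type the katanin subunit *mei-2* rose (2.92), while *ptl-1*, which encodes a tau-like protein, and *atat-2*, an α-tubulin acetyltransferase gene, fell (−2.12 and −2.26). No gene of these lists passed edgeR's test in the comparisons of *mbl-1(-)* with wild type or within the *mec-7(u278)* background. As it called 0% of the 14493 and 15221 genes there, this says nothing particular about the lists. In these comparisons *mec-17* had the values −1.04 ± 0.40 and −2.53 ± 0.75 (log2, SE; unadjusted p = 0.057 and 0.018 by edgeR's quasi-likelihood test).

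**Figure D5:**
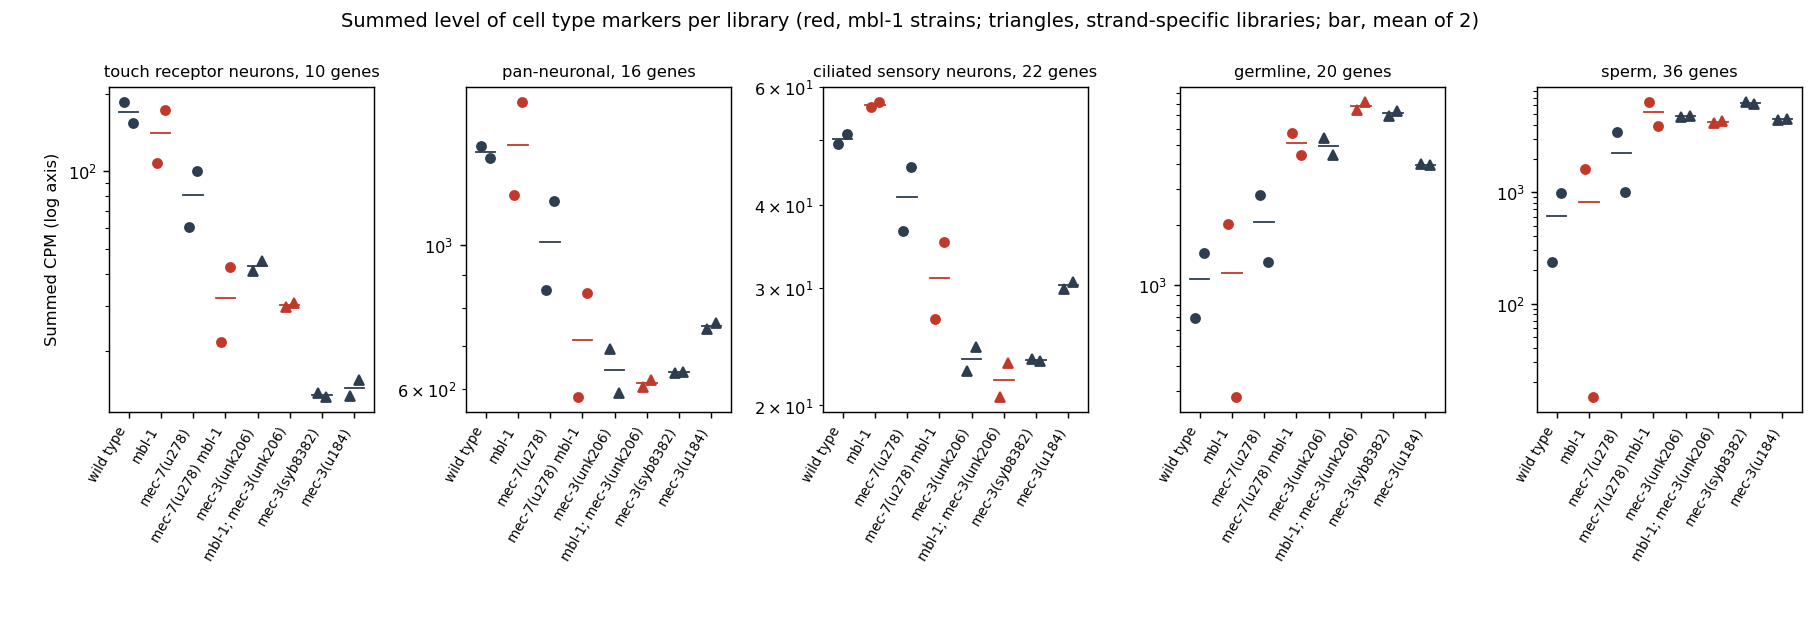
Summed CPM (log axis) of the marker lists for TRNs, all neurons, ciliated neurons, germline and sperm in each library of the 8 strains, with bars for means. TRN markers run from 13.2 to 186 CPM, and sperm genes from 14.5 CPM in *mbl-1(-)* replicate 2 to 6421 in *mec-3(syb8382)* replicate 1.

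The genes whose levels followed those of the TRN tubulins most closely were found by Pearson's r of log2(CPM + 1) over the 16 libraries, among 10470 genes with a mean of at least 5 CPM. The libraries share strains, preparation kind and germline content, so r is a description. For *mec-7* they were *mec-12* (0.954), *mec-17* (0.954), *des-2* (0.954), *ceeh-2* (0.927) and *scb-1* (0.915). Within the 8 strand-specific libraries r of *mec-7* with *mec-12* was 0.652, and within the other 8 it was 0.990. For *mec-12* the closest were *osm-10* (0.968), *vha-10* (0.968), *vha-8* (0.964), *C03B1.7* (0.963) and *cdka-1* (0.956), with *mec-7* at rank 7. The broad β-tubulin *tbb-2* went with the ribosomal protein genes *rpl-18* (0.973), *rla-0* (0.965) and *rpl-4* (0.953) and with *plin-1* (0.952) and *gly-7* (0.950), and its r with *mec-7* was 0.540, being −0.747 and 0.811 within the 2 kinds of library.

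As a check of the labels, *mec-3* gave 2.84 and 2.16 CPM in wild type and 0.135 and 0.134, or 3 reads each, in *mec-3(u184)*, the null. The gene total of *mbl-1* (22.3 to 56.2 CPM in the strains without it, 36.8 to 69.7 in the others) does not check the *tm1563* deletion, which covers only part of the gene. For *mec-7(u278)*, which alters the protein, gene counts check nothing.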

How the data were processed

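Total RNA of whole L4 worms was sequenced by a service as paired reads. Per the labels, each strain is one sample with 2 count tables, which the study's methods call biological replicates, and their numbers come only from the deposited file names. The authors aligned reads to WBcel235 with STAR 2.7.10 and deposited its counts per gene (unstranded and per strand, whole numbers, not normalized). The authors' processing notes also name DESeq2, but no output of it was used. Rows that name no gene (unmapped, multimapped, no gene 0.230% to 0.505%, ambiguous 1.53% to 1.91% of reads) entered neither library sizes nor tests.

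Strains were compared pairwise with edgeR 4.0.16 in R 4.3.3 (TMM, filterByExpr, glmQLFit, glmQLFTest, Benjamini-Hochberg over all genes, threshold 0.05), on unstranded counts, or second-strand counts within the strand-specific libraries. TMM minus plain library totals lay between −0.35 (*mec-3(unk206)* against wild type) and 0.13 on the log2 scale. Lengths and positions came from the WBcel235 annotation, and oligos from the study's supplement. Alternatives were RLE factors, DESeq2 1.42.0, no filter, a minimum of 10 counts per library, the other count column, a joint fit of 16 libraries, a replicate block, each library left out, coding length, and, chosen after seeing the data, one fit of the 8 libraries of a kind. The gene test was tested on simulated data, with a log2 change of 2 in either direction given to 200 genes. For loss of *mbl-1* it recovered 32.5% of them against wild type, 6% in *mec-7(u278)* and 98.5% in *mec-3(unk206)*. In the interactions it recovered 0.5% with *mec-7(u278)* and 8.5% with *mec-3(unk206)*. Members, gene lists and tests were chosen with earlier results of these data known. All members were named. From each other list the text could name, per comparison, the 2 called genes that changed most or, where none was called, the gene with the lowest p, and *mec-17* in *mbl-1(-)* and *tba-7* are named by these rules. The gene *tba-6*, the range of *tbg-1*, the highest mean of *tba-7* and the levels of *tbb-6* in the *mec-7(u278)* background were added after their values were seen. For likeness, 5 genes were taken.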

Additional observations from a re-analysis of the deposited data

Results flagged for a closer look

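The ciliary β-tubulin *tbb-4* was set apart because loss of *mbl-1* went with opposite directions in 2 backgrounds, in every library. It was lower in *mec-7(u278) mbl-1(-)* (1.56 and 2.45 CPM) than in *mec-7(u278)* (6.97 and 4.04 CPM), with a log2 fold change of −1.49, and higher in *mbl-1(-); mec-3(unk206)* (1.74 and 1.21 CPM) than in *mec-3(unk206)* (0.994 and 0.874 CPM), with 0.65. Neither value passed edgeR's quasi-likelihood test, and the difference between these 2 backgrounds was not tested. Of all genes, 46.2% did not overlap in the *mec-7(u278)* background and 69.9% in the *mec-3(unk206)* background. How many of them went in opposite directions was not counted. In the wild-type background the groups overlapped for *tbb-4*. The interactions with the wild-type background gave −1.57 ± 0.74 for *mec-7(u278)* (adjusted p = 0.91) and 0.58 ± 0.56 for *mec-3(unk206)* (adjusted p = 0.76, edgeR's quasi-likelihood test). With 22 to 172 reads per library, counting error is a sizeable part of these values.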

How the results depend on the processing

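In *mec-3(u184)* against *mec-3(unk206)* 2 of the 10 tubulins were called, and 3 with RLE factors, DESeq2, at least 10 counts or the other count column. In *mec-3(syb8382)* against *mec-3(unk206)* 3 were called, and 4 with DESeq2 or the fit of 8 libraries. DESeq2 called 1 (*mec-7*) in *mbl-1(-)* against wild type and 1 for loss of *mbl-1* in *mec-7(u278)*, where edgeR called 0. One fit of all 16 libraries called 9 in *mec-7(u278) mbl-1(-)* against *mbl-1(-)* and 0 in the 4 comparisons among strains with a *mec-3* allele. RLE factors, no filter, at least 10 counts, the other count column and, chosen after seeing the data, one fit of the 8 libraries of a kind moved no count by over 1.5 times. Each library left out in turn gave 0 to 2 calls for the double mutant *mec-7(u278) mbl-1(-)* against either single mutant, 2 to 4 for loss of *mbl-1* in *mec-3(unk206)*, 1 to 5 in *mec-3(u184)* and 1 to 4 in *mec-3(syb8382)* against *mec-3(unk206)*, 1 to 4 in *mec-3(syb8382)* against *mec-3(u184)*, and 2 to 9 in *mec-3(unk206)* against wild type; the lone library is then assumed to vary like the other strain.

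With the replicate number as a block, 4 members were called in *mec-3(u184)* against *mec-3(unk206)* in place of 2, and no other count moved. The correlation of same-numbered libraries' deviations lay between −0.61 and 0.50, so the numbers are not taken as pairing.

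Some values near 0 changed sign, and none of these was called in any fit. Against wild type, *mbl-1(-)* gave −0.25 for *tba-9* and −0.14 for *tbb-4* with the other count column. For loss of *mbl-1* in *mec-3(unk206)*, *tba-9* gave 0.017 with RLE factors, 0.017 with DESeq2 and 0.12 in the fit of 16 libraries. In *mec-3(u184)* against *mec-3(unk206)* *tba-5* gave −0.015 in the fit of 8. With each library left out, *mec-7(u278)* against wild type ran from −0.41 to 0.37 for *tbb-4*. In that comparison *mec-7* (−2.01 to −0.87) and *mec-12* (−1.91 to −0.72) kept their sign. Loss of *mbl-1* against wild type ran from −0.45 to 0.23 for *tba-1*, −0.20 to 0.14 for *tba-2*, −0.53 to 0.28 for *tba-5* and −0.029 to 0.23 for *tba-9*. It also ran from −0.17 to 0.28 for *tbb-1*, −0.28 to 0.12 for *tbb-2* and −0.41 to 0.56 for *tbb-4*. In the *mec-7(u278)* background it ran from −0.41 to 0.19 for *tba-2* and −0.44 to 0.78 for *tba-9*, in *mec-3(unk206)* from −0.055 to 0.083 for *tba-2*, −0.23 to 0.037 for *tba-5* and −0.14 to 0.15 for *tba-9*, and in *mec-3(u184)* against *mec-3(unk206)* from −0.12 to 0.15 for *tba-5*. The interaction with *mec-3(unk206)* ran from −0.51 to 0.38 for *mec-7* and −0.25 to 0.60 for *mec-12*, and *tba-2*, *tba-5*, *tba-9* and *tbb-1* changed sign there too, as did *tba-1*, *tba-2*, *tba-9* and *tbb-2* in the interaction with *mec-7(u278)*. The cause of these changes was not tested. By coding length *mec-12* and *mec-7* kept their ranks in 7 strains.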
